A study of Mus musculus with 6 samples.

Results

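The kinase gene Sgk1, its relative Sgk3, the SGK1 substrates Nedd4l, Foxo1 and Foxo3, and the genes Klf2, S1pr1 and Tsc22d3, which act downstream of FOXO factors, were followed in T helper 9 (Th9) cells with and without IRF1. These 8 genes were found among the 41388 genes of the expression table by matching Ensembl identifiers to mouse symbols. They were chosen by their function and by their difference in normalized count between the same WT and Irf1-/- samples, so that these differences are given as a description, and no p-value is given for them. The cells were CD4+ T cells of C57BL/6 mice aged 8 to 12 weeks, either WT or Irf1-/-, the latter lacking a functional Irf1 gene in all cells of the animal. Cells of both genotypes were stimulated through CD3 and CD28 with IL-2, IL-4, TGF-β and an antibody to mouse IFN-γ, and both received rat IFN-γ at 5 ng per ml for the 2 days of culture. RNA-Seq was performed on 3 samples of each genotype, and no culture without IFN-γ was part of the comparison. The study describes the samples as independent biological samples without saying whether each came from a separate mouse, and errors and p-values describe the spread between these samples.

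SGK1 is a serine/threonine kinase of the AGC family that is switched on by mTORC2 and PDK1 downstream of PI3K, and its own gene is quickly induced by steroids, salt and other stimuli. Like AKT, it phosphorylates FOXO1 and FOXO3, which then leave the nucleus, and it phosphorylates the ubiquitin ligase NEDD4-2, the product of Nedd4l, which is thereby held inactive by 14-3-3 proteins. In T cells nuclear FOXO1 drives Klf2, a transcription factor of quiescent cells, and KLF2 in turn drives S1pr1, whose product guides T cells out of lymph nodes. The measurements are of RNA, and neither phosphorylation nor the place of a protein in the cell was measured.

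The libraries held between 5639788 and 13348230 reads on genes, and those of replicate 3 were the largest of both genotypes. All values are normalized counts, that is, reads scaled by the size factor of their library, on which 3 reads correspond to 1.84 to 4.16. The 6 T helper markers, among them Cd3e and Cd4, summed to between 12540 and 13260 in every library. Markers of CD8 T cells (2 genes) summed to 32.5 to 41.2 in WT and 20.3 to 30.7 in Irf1-/- libraries, and 4 B cell markers to 18.7 to 26.5 and 21.7 to 37.4. The 7 myeloid markers summed to 111 to 256 in WT and 35.8 to 1023 in Irf1-/- libraries, the highest in Irf1-/- replicate 2, where Lyz2 stood at 558.9 and Cd14 at 334. Mpeg1 of the same list went the other way, at 89.9, 110.6 and 80.5 in WT and 60.9, 56.9 and 19.8 in Irf1-/- libraries. Of 4 NK cell markers, 3 were at 0 in all libraries. The part of these other cell types in the differences below was not tested. Reads on the targeted gene Irf1 stood at 2968, 2907 and 2660 in WT and at 1780, 1729 and 1476 in Irf1-/- libraries, so that the RNA of this gene was lower but present. WT replicates 1 and 2 held the Y-linked Ddx3y at 849 and 939 with Xist at 6.01 or less, whereas the other 4 libraries held Xist at 16970 or more with Ddx3y at 4.16 or less, although the study's methods describe the mice as sex-matched. The sex of the cells therefore differed between most of the WT and all of the Irf1-/- libraries, and for each of the 8 genes the log2 value or ratio against WT replicate 3 alone is given as well. Since Y-linked RNA was high in WT replicates 1 and 2 only, fits with it as a covariate rest largely on the same comparison. They are therefore not a separate check. In bulk RNA, fewer cells of a type and less RNA per cell cannot be told apart.

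Sgk1 was the member that differed most between the genotypes. Its normalized counts were 89.9, 92.6 and 138 in the WT samples and 718, 695 and 829.5 in the Irf1-/- samples. All 3 Irf1-/- samples thus lay far above the WT samples, of which replicate 3 was the highest. Sgk1 averaged 107 ± 26.9 (SD, n = 3) among WT samples and 747 ± 72.1 (SD, n = 3) among Irf1-/- samples, which is 7.003 times as high, with a log2 fold change of 2.82 (standard error 0.1503). Against WT replicate 3 alone, the only WT library with Xist, the Irf1-/- mean of Sgk1 was 5.43 times as high, and between the libraries numbered 3 the log2 ratio was 2.59.

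Sgk1 (ENSMUSG00000019970) occupies bases 21882184 to 21999903 on the + strand of chromosome 10 of GRCm38 and is annotated with 13 transcripts that begin at different sites. RefSeq windows around transcript starts (GRCm38.p6, from 250 bases before to 50 after the start) were at hand for 6 Sgk1 starts. The parts upstream of exons are shown for 3 of them, each holding a match to a motif that was searched for. The IRF and glucocorticoid motifs belong to regulators that this experiment concerns or that the gene is known for. Capitals mark the match. The first ends at the most upstream start of the gene, chr10:21881934-21882183 on the + strand, and its capitals mark the opposite strand of GAAA, any 2 bases and GAAA, the core of the element that IRF proteins bind.
Sgk1 upstream start: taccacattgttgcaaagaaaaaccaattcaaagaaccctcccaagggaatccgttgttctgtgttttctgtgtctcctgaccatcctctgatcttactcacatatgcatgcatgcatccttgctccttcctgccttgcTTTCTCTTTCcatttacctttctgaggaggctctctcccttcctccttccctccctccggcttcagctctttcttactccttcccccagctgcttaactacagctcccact
The second, chr10:21993640-21993889, lies in an intron of 5 of the 13 transcripts, and its capitals mark GNACA, any 3 bases and TGTNC, the palindrome bound by the glucocorticoid receptor.
Sgk1 internal start with glucocorticoid motif: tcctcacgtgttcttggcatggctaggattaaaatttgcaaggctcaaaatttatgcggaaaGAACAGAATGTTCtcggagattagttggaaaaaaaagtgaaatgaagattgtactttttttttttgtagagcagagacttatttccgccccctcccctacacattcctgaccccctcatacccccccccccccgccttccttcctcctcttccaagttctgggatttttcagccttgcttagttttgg
The third, chr10:21994416-21994665, lies in an intron of 6 of the transcripts, and its capitals mark TATAAA, the letters of the TATA element. Whether these letters act as such an element here was not tested.
Sgk1 internal start with TATA motif: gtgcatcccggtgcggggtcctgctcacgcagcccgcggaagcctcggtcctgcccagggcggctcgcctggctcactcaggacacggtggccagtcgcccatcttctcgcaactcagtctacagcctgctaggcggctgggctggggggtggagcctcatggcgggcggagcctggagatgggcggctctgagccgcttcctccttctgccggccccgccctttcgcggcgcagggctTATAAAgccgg
Both strands were searched. The IRF core began 111 bases before the start and was present in 3.44% of 32851 windows of all genes, the glucocorticoid palindrome began 188 bases before its start and was present in 0.475%, and TATAAA began 11 bases before its start and was present in 13.6%. A further Sgk1 window, not shown, also held TATAAA, 28 bases before its start. A letter match is a description of the sequence and shows no binding, and reads were counted per gene, so that the start used in these cells is unknown.

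Sgk3, which encodes a related kinase with a lipid-binding domain that brings it to endosomes, was lower in the Irf1-/- samples. Its normalized counts were 145, 141 and 155 in WT and 106, 108 and 120.1 in Irf1-/- samples, without overlap. Sgk3 averaged 147 ± 7.33 (SD, n = 3) among WT samples and 111.5 ± 7.525 (SD, n = 3) among Irf1-/- samples, which is 75.98% of the WT level, with a log2 fold change of -0.39 (standard error 0.111). The log2 value of Sgk3 against WT replicate 3 alone was -0.47. Per kb of exon, Sgk1 stood at 21.8 ± 5.48 (SD, n = 3) normalized counts and Sgk3 at 10.3 ± 0.512 in WT cells, against 152 ± 14.7 and 7.79 ± 0.526 in Irf1-/- cells. Sgk3 (ENSMUSG00000025915, chromosome 1, 9798107 to 9900845, + strand) shares its interval with Gm22607 and Gm6195 on the other strand, and whether the counting used strand is not given in the sources used here.

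Nedd4l, whose product NEDD4-2 removes sodium channels and other membrane proteins and is restrained by SGK1, was higher in the Irf1-/- samples. Its normalized counts were 105, 109 and 137 in WT and 158, 161 and 179.6 in Irf1-/- samples, again without overlap. The means of Nedd4l were 117 ± 17.45 (SD, n = 3) and 166 ± 11.9 (SD, n = 3), with a log2 fold change of 0.51 (standard error 0.129). The value against WT replicate 3 alone was 0.28. Nedd4l (ENSMUSG00000024589, chromosome 18, 64887705 to 65217828, + strand) overlaps A330084C13Rik and AC102333.1 on the other strand.

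Foxo1 and Foxo3, the FOXO genes among the members, differed less than Sgk1. Foxo1 had normalized counts of 1803, 1813 and 2111 in WT and 1949, 1831 and 2181 in Irf1-/- samples, and it was the only member whose genotypes overlapped. Its means were 1909 ± 175 (SD, n = 3) and 1987 ± 178 (SD, n = 3), with a log2 fold change of 0.06 (standard error 0.0800), and in both genotypes replicate 3 was the highest. The sign of this small difference turned when Y-linked RNA was a covariate, to -0.09, and without Irf1-/- replicate 3, to -0.01. Against WT replicate 3 alone, largely the same comparison as the covariate fit, the Foxo1 value was -0.09. Foxo3 had normalized counts of 664, 678 and 639 in WT and 556, 521 and 538 in Irf1-/- samples. Its means were 660.2 ± 19.95 (SD, n = 3) and 539 ± 17.5 (SD, n = 3), which is 81.6% of the WT level and a log2 fold change of -0.29 (standard error 0.0633), or -0.25 against WT replicate 3 alone. Foxo3 was thus lower in each Irf1-/- sample than in any WT sample, and it was the member with the smallest standard error. Foxo1 (ENSMUSG00000044167) lies on chromosome 3 from 52268336 to 52353221 on the + strand and overlaps Gm38034 on the same strand and Gm20402 on the other. Foxo3 (ENSMUSG00000048756) lies on chromosome 10 from 42181841 to 42276755 on the - strand.

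Klf2 was lower in Irf1-/- cells, and it was also the least abundant member by count and the most variable between replicates. Its normalized counts were 66.1, 70.9 and 24.6 in WT and 20.3, 20.8 and 6.39 in Irf1-/- samples, the last resting on 10 reads. Replicate 3 was the lowest sample of each genotype, at 35.9% of the mean of replicates 1 and 2 in WT and 31.1% in Irf1-/- cells, and WT replicate 3 lay only just above Irf1-/- replicates 1 and 2. The means of Klf2 were 53.9 ± 25.5 (SD, n = 3) and 15.8 ± 8.18 (SD, n = 3), which is 29.4% of the WT level, with a log2 fold change of -1.72 (standard error 0.479). Against WT replicate 3 alone the log2 value was -0.64, with Y-linked RNA as a covariate it was -0.79, and between the libraries numbered 3 it was -1.94. With only the 4 smaller libraries, numbered 1 and 2, the log2 value of Klf2 was -1.69. The size of the Klf2 difference thus depended on whether libraries of the same numbers were set against each other, while its sign did not.

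Klf2 (ENSMUSG00000055148) is a short gene of the + strand of chromosome 8, spanning bases 72319033 to 72321656 in GRCm38. Its RefSeq window, shown up to the first exon base of the annotation as chr8:72318812-72319032 on the + strand, holds CTAAA followed by TTTAG, a palindrome of the kind that MEF2 factors bind, marked in capitals. This motif was chosen after the sequences were seen, and is shown because induction of Klf2 by MEF2 factors through such an element is known from other cells.
Klf2: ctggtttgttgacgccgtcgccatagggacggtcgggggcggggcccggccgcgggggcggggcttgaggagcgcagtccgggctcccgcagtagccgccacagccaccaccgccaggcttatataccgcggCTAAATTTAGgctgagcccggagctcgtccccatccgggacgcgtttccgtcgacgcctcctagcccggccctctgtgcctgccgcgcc
The match began 118 bases before the start and was present in 0.0396% of the 32851 windows, that is in 13 windows. The FOXO element TGTTTAC, present in 3.65% of all windows, was found in none of the 12 windows at hand for Sgk1, Foxo1, Foxo3, Klf2 and Tsc22d3, and the STAT element TTCNNNGAA, present in 8.30%, was found in 1 window of Sgk1 and 1 of Tsc22d3. In the upstream Sgk1 window the STAT and IRF matches did not overlap, and a missing match says only that these letters are not in these windows. No window was at hand for Sgk3, Nedd4l and S1pr1.

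S1pr1, a target of KLF2 and the receptor by which T cells sense sphingosine-1-phosphate (S1P) and leave lymphoid organs, differed in the opposite direction to Klf2. Its normalized counts were 86.1, 119 and 86.7 in WT and 172, 176 and 233 in Irf1-/- samples. The means of S1pr1 were 97.3 ± 18.8 (SD, n = 3) and 194 ± 33.9 (SD, n = 3), which is 1.99 times as high, with a log2 fold change of 0.99 (standard error 0.162). All Irf1-/- samples lay above all WT samples, and the log2 value against WT replicate 3 alone was 1.16. S1pr1 (ENSMUSG00000045092) lies on chromosome 3 from 115710433 to 115715072 on the - strand.

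Tsc22d3 encodes GILZ, a leucine zipper protein induced by glucocorticoids and by FOXO3 that restrains NF-κB and AP-1. It had normalized counts of 163.5, 137 and 251 in WT and of 347, 304 and 438 in Irf1-/- samples. The genotypes did not overlap, and replicate 3 was the highest sample of each, at 167% of the mean of replicates 1 and 2 in WT and 135% in Irf1-/- cells. The means of Tsc22d3 were 184 ± 59.9 (SD, n = 3) and 363 ± 68.7 (SD, n = 3), which is 1.97 times as high, with a log2 fold change of 1.01 (standard error 0.201). Against WT replicate 3 alone the value was 0.53, and with Y-linked RNA as a covariate, largely the same comparison, it was 0.54. Tsc22d3 (ENSMUSG00000031431) lies on the X chromosome from 140539528 to 140600659 on the - strand.

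**Figure D1:**
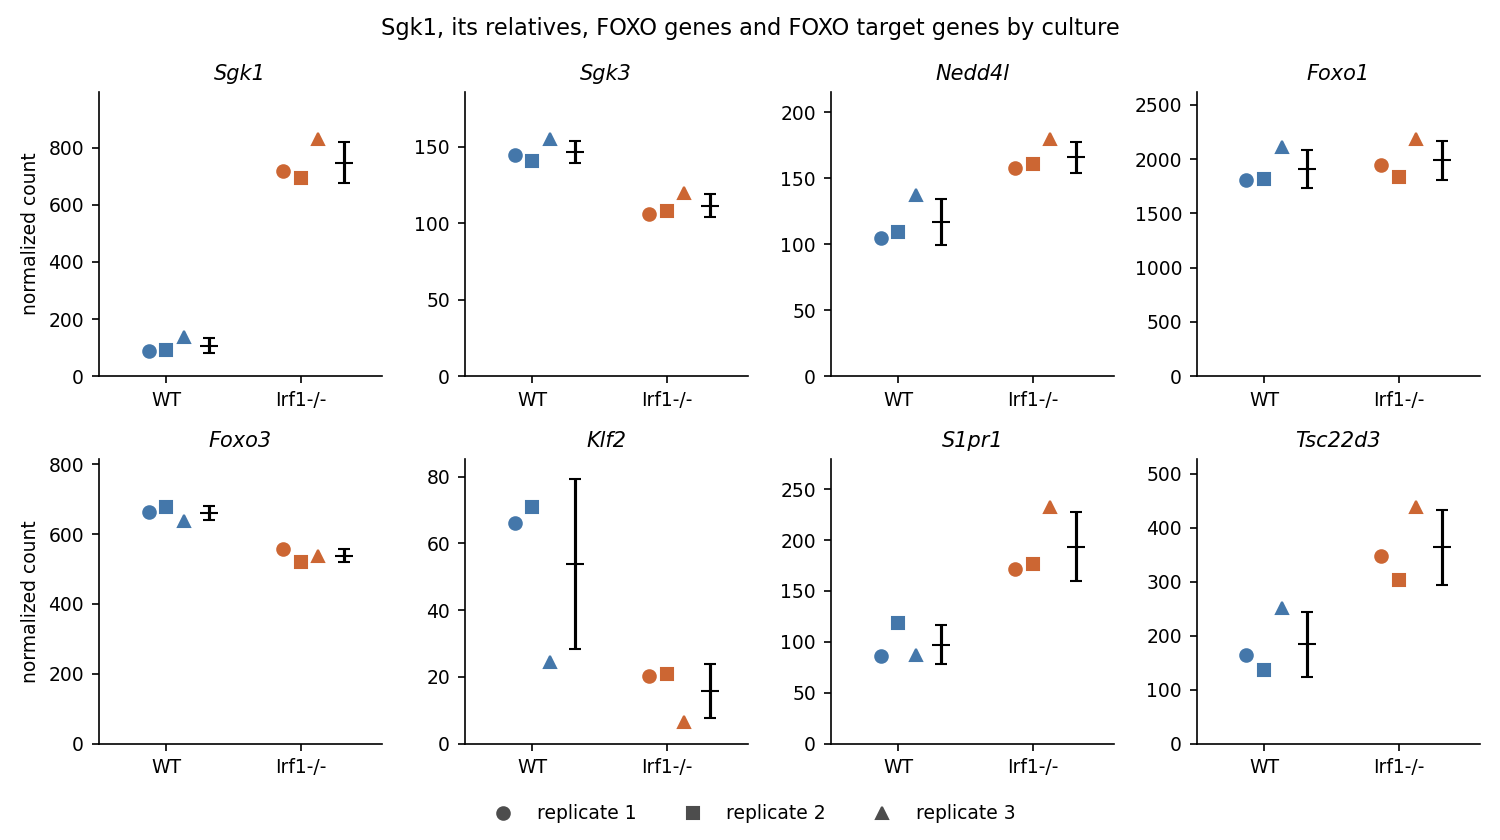
Normalized count (vertical axes, each from 0) of the 8 genes in each WT (blue) and Irf1-/- (orange) sample, with the mean and SD of 3 samples as a horizontal mark and bar and the replicate number as the symbol. Sgk1 stands 7.003 times as high in Irf1-/- cells, Foxo1 overlaps between the genotypes, and Klf2 is lowest in replicate 3 of each genotype.

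All 8 members had a mean of at least 10 and entered the fit over 11379 genes. At a Benjamini-Hochberg adjusted p below 0.05 in limma, 4 members were called higher (Sgk1, Nedd4l, S1pr1 and Tsc22d3) and 3 lower (Sgk3, Foxo3 and Klf2), beside 23.7% of all genes tested. The genotypes did not overlap for the same 7 members, beside 40.5% of all genes, 20.9% lower and 19.7% higher. Since these differences were in view when the members were chosen, the counts test nothing and nothing is read from them. The call was lost for Sgk3 in 7 of 18 alternative analyses, for Klf2 in 4 of 17, for Nedd4l in 3 of 18 and for Foxo3 in 1 of 18.

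The values of replicates 1 and 2 were close for most members, and replicate 3 lay on the same side of their mean in both genotypes for all members but S1pr1. For Foxo3 in Irf1-/- cells, replicate 3 lay between replicates 1 and 2. On the log2 scale replicate 3 lay 0.59 above the mean of the other two for Sgk1 in WT and 0.23 above it in Irf1-/- cells. For Klf2 the values were -1.48 and -1.69, and for Tsc22d3 0.74 and 0.43. For S1pr1 they were -0.24 in WT and 0.42 in Irf1-/- cells. These distances, and those of Foxo1 (0.22 and 0.21), exceeded in size the median absolute log2 fold change between genotypes over all genes tested, which was 0.174. Those of Sgk3 (0.12 and 0.16) and Foxo3 (-0.07 and -0.00) did not, and Nedd4l stood at 0.36 in WT and 0.17 in Irf1-/- cells. The median is of differences between means of 3 samples, so it is only a rough measure for single samples. In WT cells replicate 3 also differed from replicates 1 and 2 in Xist and in library size, and the part of either in these values was not tested.

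To compare levels between genes, normalized counts were divided by the exon length of each gene in kb. In WT cells the order of this level was Foxo1 (220.3 ± 20.2, SD, n = 3), Foxo3 (87.2 ± 2.64), Tsc22d3 (42.4 ± 13.8), S1pr1 (31.9 ± 6.19), Klf2 (29.2 ± 13.8), Sgk1 (21.8 ± 5.48), Sgk3 (10.3 ± 0.512) and Nedd4l (6.63 ± 0.988). The samples of Tsc22d3, S1pr1 and Klf2 overlapped, so that the order among these is not resolved. Sgk1 overlapped Klf2 but lay below all samples of Tsc22d3 and S1pr1, and the other neighbours did not overlap. The margin to S1pr1 was narrow, with the highest WT sample of Sgk1 at 28.08 and the lowest of S1pr1 at 28.27. In Irf1-/- cells the order was Foxo1 (229 ± 20.6), Sgk1 (152 ± 14.7), Tsc22d3 (83.7 ± 15.8), Foxo3 (71.2 ± 2.31), S1pr1 (63.6 ± 11.1), Nedd4l (9.40 ± 0.672), Klf2 (8.57 ± 4.43) and Sgk3 (7.79 ± 0.526). Tsc22d3, Foxo3 and S1pr1 overlapped, and Klf2 overlapped both Nedd4l and Sgk3. In WT cells Sgk1 thus lay below Tsc22d3 and, by a narrow margin, below S1pr1, and in Irf1-/- cells it lay above all members other than Foxo1. Its level per kb remained below that of Akt1, the most abundant of the AKT kinase genes that share its FOXO substrates, at 520.4 in WT and 501 in Irf1-/- cells. It was close to that of Akt2 in Irf1-/- cells, at 156. Among other KLF genes, Klf6 stood at 458 in WT and 351 in Irf1-/- cells and Klf13 at 167 and 173.5, above Klf2, while Klf7 (24.4 and 46.3), Klf9 (18.6 and 34.2) and Klf3 (10.8 and 7.09) had means below that of Klf2 in WT cells.

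**Figure D2:**
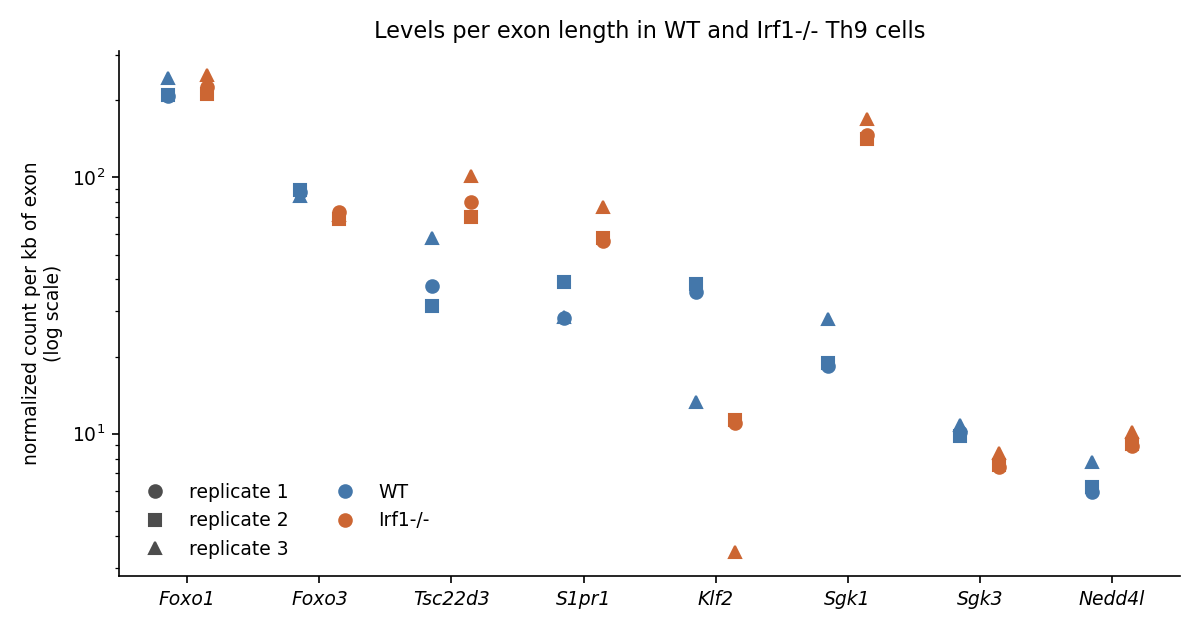
Normalized count per kb of exon (vertical axis, log scale) of each member in the WT (blue) and Irf1-/- (orange) samples, with the replicate number as the symbol. Foxo1 is the most abundant member in both genotypes, and Sgk1 goes from a mean of 21.8 in WT to 152 in Irf1-/- cells.

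The genes whose pattern over the 6 samples was most like that of Sgk1 were sought by the Euclidean distance of log2 values, each gene centred on its mean, among 8224 genes with a mean of at least 100. They were Aqp9, an aquaglyceroporin, at a distance of 0.53, Basp1 at 0.80, Ctla2a, a cathepsin inhibitor-like protein, at 0.81, Alpk2 at 0.85 and Acvrl1, a receptor of the TGF-β superfamily, at 0.87. Aqp9 had normalized counts of 31.2, 24.0 and 49.2 in WT and 191, 179 and 209 in Irf1-/- samples, and like Sgk1 it was highest in replicate 3 of each genotype. The log2 fold changes of the other 4 were 3.11 for Basp1, 2.23 for Ctla2a, 2.80 for Alpk2 and 2.25 for Acvrl1. Among the members Tsc22d3 (distance 2.24) and S1pr1 (2.36) were nearest to Sgk1, at places 83 and 107, and Nedd4l (2.84) was at place 290. Klf2 had a mean below 100 and was not compared.

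The genes around the axis were described with 9 lists of 126 genes in all, none of them a member, of which 114 were tested. Adjusted over all genes tested, limma called 25 of these lower and 11 higher in Irf1-/- cells, 31.6% of the list genes tested beside 23.7% of all genes, of which 12.4% were lower and 11.4% higher. The lists were written with earlier results in view and are described by counts and medians, and the median log2 fold change of all genes tested was -0.004.

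**Figure D3:**
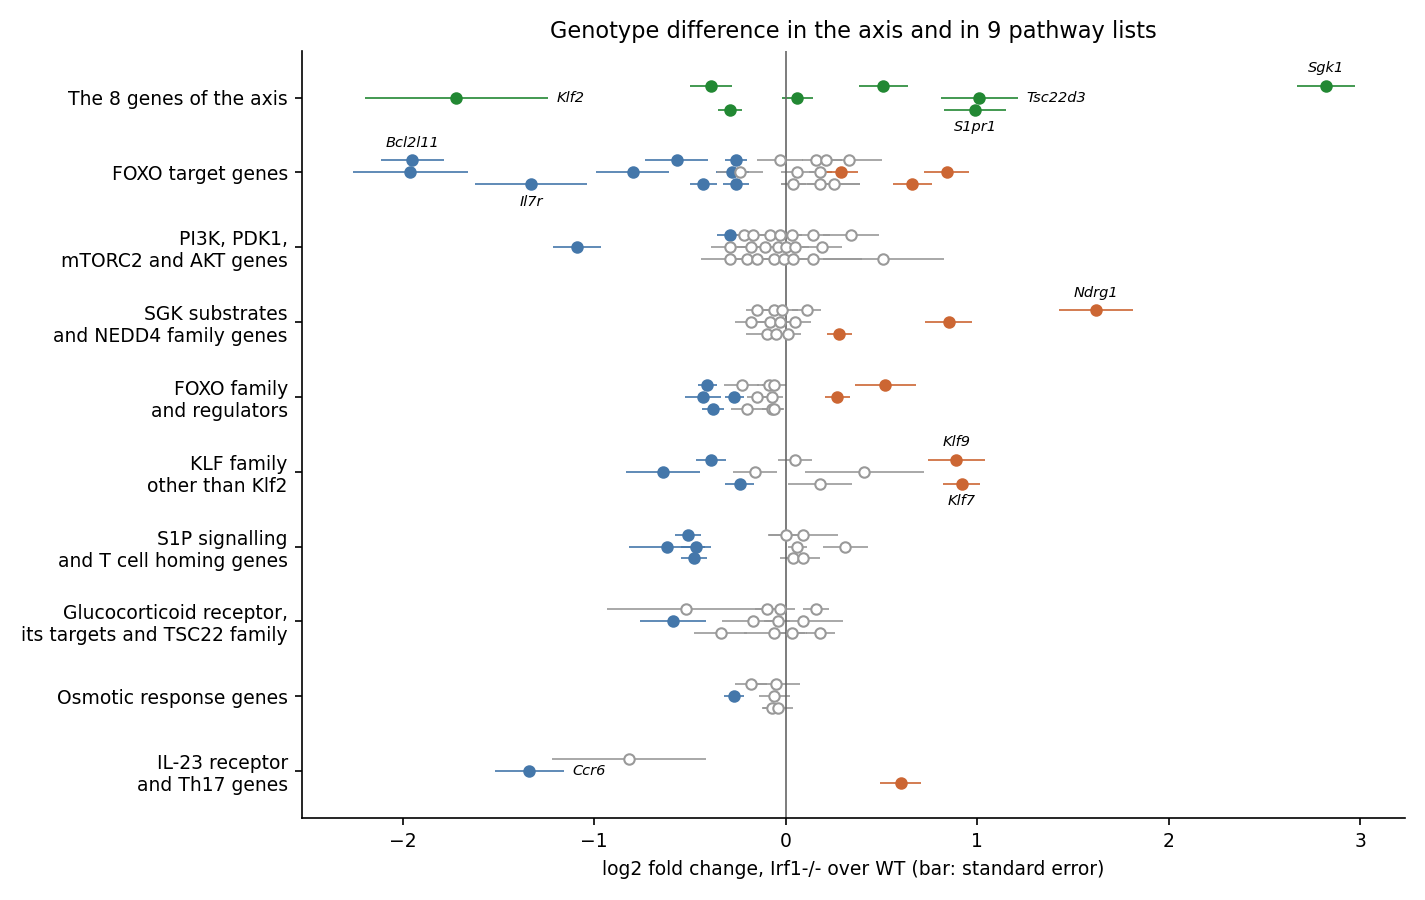
Log2 fold change, Irf1-/- over WT (horizontal axis, with the standard error as a bar), of the 8 members (green) and of the tested genes of 9 lists, with genes called lower in filled blue, called higher in filled orange and not called as open circles. Sgk1 at 2.82 is the highest value, and Ndrg1 at 1.62 is the highest among the list genes.

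Of 22 known FOXO target genes, 9 fell and 3 rose in Irf1-/- cells, 54.5% of the list, with a median log2 fold change of 0.01, and the genotypes did not overlap for 15, beside 40.5% of all genes. Bcl2l11, which encodes the death-promoting protein BIM, stood at 278, 315 and 235 in WT and at 74.0, 84.6 and 55.6 in Irf1-/- samples. It fell by 1.95 on the log2 scale (standard error 0.165, limma adjusted p = 3.24e-05), with all Irf1-/- samples well below the WT samples. Il7r, which encodes the α chain of the receptor for the survival cytokine IL-7, stood at 101, 105 and 158 in WT and at 37.0, 34.7 and 79.2 in Irf1-/- samples. It fell by 1.33 (standard error 0.293, limma adjusted p = 0.00889), and replicate 3 was its highest sample in each genotype.

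Smaller decreases were seen in Bcl6 (-0.80), Sesn3 (-0.57), Ccr7 (-0.43), Ccng2 (-0.28), Tcf7 (-0.26) and Btg1 (-0.26), all log2 fold changes, although the samples of Sesn3 overlapped between the genotypes. Ccr7 encodes a chemokine receptor for entry into lymph nodes and TCF-1, the product of Tcf7, marks naive and memory-like T cells. The FOXO targets of metabolism and autophagy that rose were Txnip by 0.84, Irs2 by 0.66 and Gabarapl1 by 0.29. TXNIP limits glucose uptake, and Txnip stood at 112, 131 and 125 in WT and 217, 247 and 197.5 in Irf1-/- samples (limma adjusted p = 0.000706). Cdkn1b, which encodes the cell cycle inhibitor p27, had a log2 fold change of 0.16 (limma adjusted p = 0.131). The list thus held genes in both directions, as did the members themselves, with Klf2 lower and S1pr1 and Tsc22d3 higher. The calls of Bcl6, Sesn3, Ccng2, Btg1 and Gabarapl1 were lost in 4 to 10 of 18 alternative analyses, and those of Il7r and Tcf7 in 1. With Y-linked RNA as a covariate the log2 fold changes were -0.38 for Bcl6, -0.14 for Btg1 and 0.17 for Gabarapl1.

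**Figure D4:**
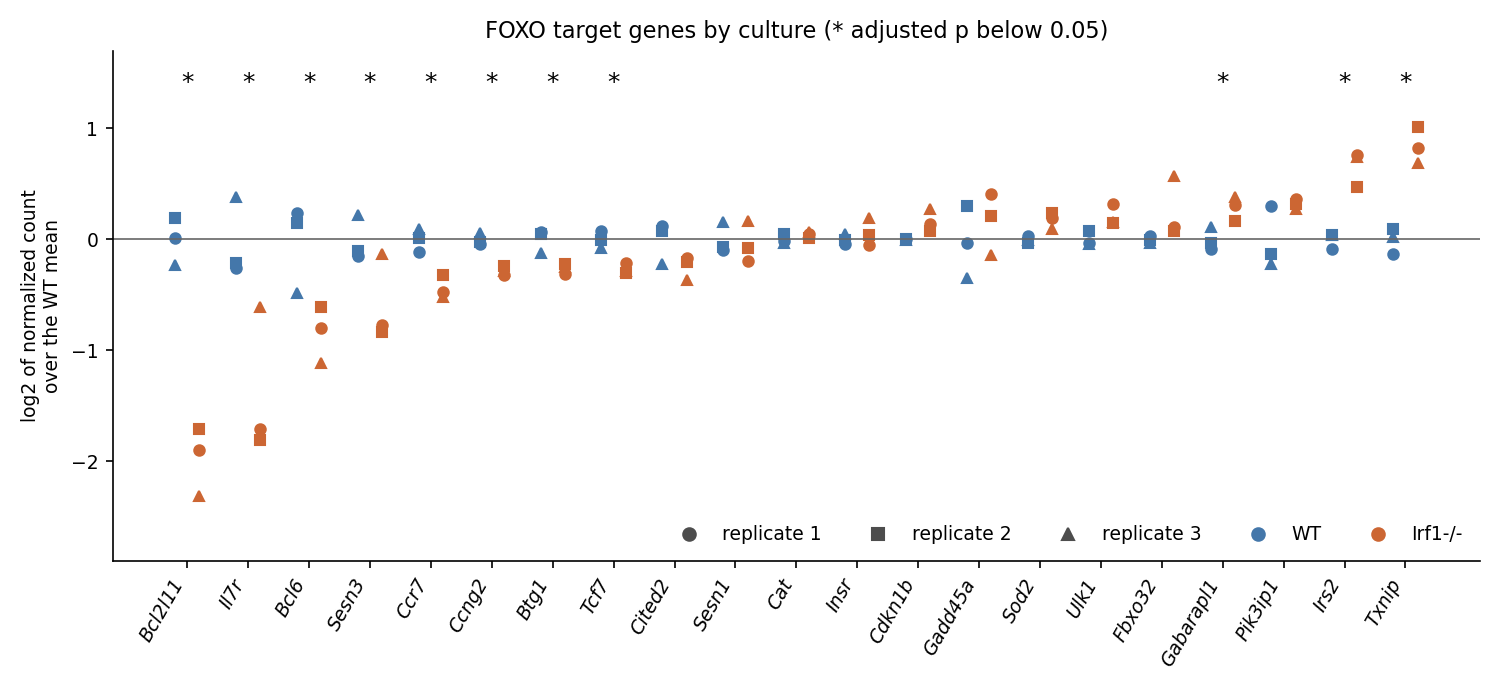
Log2 of the normalized count over the WT mean (vertical axis) of 21 of the 22 FOXO target genes, ordered by log2 fold change, in each WT (blue) and Irf1-/- (orange) sample, with the replicate number as the symbol and an asterisk where the limma adjusted p was below 0.05. Bcl2l11 and Il7r lie lowest in Irf1-/- cells, Txnip lies highest, and 10 genes were not called.

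Among 24 genes of the PI3K, PDK1, mTORC2 and AKT pathway that activates SGK1 and AKT, 2 fell and none rose by limma (8.33% called, median -0.05). Tsc1, an inhibitor of mTORC1, fell from 545 ± 19.8 (SD, n = 3) to 447 ± 25.0 (SD, n = 3), by 0.29 on the log2 scale (limma adjusted p = 0.0150), a call lost in 6 of 18 alternatives. The catalytic PI3K genes Pik3ca and Pik3cb had log2 fold changes of -0.15 and -0.11 and were not called.

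Of 14 genes of SGK substrates and the NEDD4 family, 3 rose and none fell by limma (21.4% called, median -0.02). Ndrg1 encodes a protein whose phosphorylation by SGK1, not measured here, is widely used as a readout of SGK1 activity. The RNA of Ndrg1 stood at 104, 111 and 187 in WT and at 364, 380.0 and 454 in Irf1-/- samples. It rose by 1.62 on the log2 scale (standard error 0.193, limma adjusted p = 0.000283), and replicate 3 was its highest sample in each genotype, as for Sgk1. Ndrg2, a further SGK1 substrate, rose by 0.85 from 256 ± 49.2 (SD, n = 3) to 457 ± 33.3 (SD, n = 3), with a limma adjusted p of 0.000921. Smurf1, a ubiquitin ligase of TGF-β receptors and SMAD proteins, rose by 0.28 (limma adjusted p = 0.0124). Nedd4 and Itch, the NEDD4 family ligases best known in T cells, were not called, with normalized counts of 793 and 819 for Nedd4 and 748 and 675 for Itch in WT and Irf1-/- cells.

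Of 15 genes of the FOXO family and its regulators, 14 were tested, 4 fell and 2 rose (42.9% called, median -0.12). Those that fell were Skp2 (-0.43) and Mdm2 (-0.38), ubiquitin ligase genes whose products can target FOXO proteins, Stk4 (-0.41), a kinase gene whose product MST1 activates FOXO, and Xpo1 (-0.27), the nuclear export receptor gene. Foxo4, the third FOXO gene expressed here, rose by 0.52 from 181 ± 42.75 (SD, n = 3) to 257 ± 27.1 (SD, n = 3) (limma adjusted p = 0.0354), and this call was lost in 8 of 18 alternatives. The Foxo4 value was 0.34 without WT replicate 2 and 0.23 with Y-linked RNA as a covariate. Sirt2, a deacetylase gene, rose by 0.27, a call lost in 4 of 18 alternatives. The 14-3-3 gene Ywhab had a log2 fold change of -0.07 and was not called.

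Of 10 KLF genes other than Klf2, 9 were tested, 3 fell and 2 rose (55.6% called, median 0.05). Klf7 stood at 191, 189 and 214.5 in WT and at 377, 341 and 411 in Irf1-/- samples and rose by 0.92 on the log2 scale (standard error 0.0967, limma adjusted p = 0.000123). Klf9, a gene induced by glucocorticoids and thyroid hormone, rose by 0.89 (limma adjusted p = 0.00197). Klf3 (-0.64), Klf6 (-0.39) and Klf16 (-0.24) fell, the calls of Klf3, Klf6 and Klf16 being lost in 8, 1 and 10 of 18 alternatives. Klf4, a relative of Klf2 with which it shares functions in quiescence, was low, averaging 15.5 ± 4.98 (SD, n = 3) among WT samples and 20.3 ± 2.98 (SD, n = 3) among Irf1-/- samples, and was not called.

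Of 13 genes of S1P signalling and T cell homing, 10 were tested, 4 fell and none rose by limma (40% called, median 0.02). Cd69, whose product pulls the S1P receptor S1PR1 off the cell surface, stood at 517, 535 and 482 in WT and at 343, 395 and 371 in Irf1-/- samples and fell by 0.47 on the log2 scale (standard error 0.0792, limma adjusted p = 0.00222). Cd69 was thus lower where S1pr1 was higher. Sgpp1, a phosphatase gene of S1P breakdown, fell by 0.51, Itgb7, an integrin gene of homing to the gut, by 0.48, and S1pr3 by 0.62, the last call being lost in 9 of 17 alternatives. S1pr2 had a log2 fold change of 0.09 and was not called.

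Other genes of the glucocorticoid and osmotic responses, which induce Sgk1 or Tsc22d3, were read against the 23.7% of all genes called. Of 12 tested genes of the glucocorticoid receptor, its targets and the TSC22 family, only Rgs2 was called by limma, with a fall of 0.59 that was lost in 6 of 18 alternatives and stood at -0.35 with Y-linked RNA as a covariate (8.33% called, median -0.05), while Klf9, described with the KLF genes, is a glucocorticoid-induced gene that rose. The glucocorticoid receptor gene Nr3c1 had a log2 fold change of -0.34 (limma adjusted p = 0.102), and Fkbp5, a receptor target widely used as a readout, had 0.18 (limma adjusted p = 0.110), each being called in 4 of 18 alternatives. Of 6 tested osmotic response genes, Slc6a6, a taurine transporter gene, was called and fell by 0.27 (16.7% called, median -0.06), while Nfat5, the main factor of this response, had a log2 fold change of -0.04 and the inositol transporter gene Slc5a3 of -0.18. Of 8 genes of the IL-23 receptor and Th17 cells, in which SGK1 is known to promote Il23r, 3 had a mean of at least 10. Of these, Ccr6 fell by 1.34 and Rora rose by 0.60 (66.7% called). Il23r did not pass 1.25 in any library, and Il17a and Il22 had no reads in any.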

How the data were processed

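RNA-Seq of poly(A) RNA was performed on 3 WT and 3 Irf1-/- samples. The authors aligned single reads to GRCm38 with STAR 2.4.0b, counted them per gene of the Ensembl annotation with featureCounts, and divided the counts by DESeq2 size factors (version 1.12.3). The deposited signal is this normalized count. All non-zero values (100.0%) were whole multiples of the value of 1 read in their library, within a tolerance of 0.01, so that whole reads were recovered. Strand use and the handling of reads matching several genes are not given in the sources used here.

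The test was limma 3.58.1 in R 4.3.3 (eBayes with a trend) on log2 of the normalized count plus 1, for 11379 genes with a mean of at least 10 and with Benjamini-Hochberg adjustment. On the recovered reads, edgeR 4.0.16 called 1417 genes lower and 1261 higher, and DESeq2 1.42.0 called 1060 and 942, beside 1406 and 1293 by limma. The other alternatives were pseudocounts of 0.1 and 10, no filter, a minimum mean of 50, TMM factors, quantile normalization, a replicate block, eBayes without a trend, the summed level of Y-linked genes as a covariate, the 4 smaller libraries, the pair of larger ones, and each library left out in turn. The script was tested on simulated data with known changes.

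The members and the 9 lists were chosen with earlier results of these data known. Named were the members, list genes called by limma, the first 2 tested genes of each list, and the 5 genes nearest to Sgk1 in pattern. Akt1, Akt2, Klf13, Nedd4, Itch, Cdkn1b and Il17a, Il22 and Il23r were named after their values were seen. Symbols, exon lengths and positions came from the GENCODE M21 annotation of GRCm38, and 40254 of 41388 identifiers had a symbol. Promoter windows came from RefSeq (GRCm38.p6), with 32851 windows for all genes. Deviations from the group means correlated between samples of the same number by 0.09, 0.27 and 0.32, and between samples of different numbers by -0.31 to 0.08. The sources used here do not describe the numbers as pairs. The main fit therefore did not pair them, and the replicate block was run as an alternative. ChIP-Seq data were not analysed here, and some list genes are counted but not reported by name.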

Additional observations from a re-analysis of the deposited data

How the results depend on the processing

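The log2 fold change of Sgk1 lay between 2.46 and 3.02 in 19 alternatives, as a description, since this contrast chose the gene. The lowest value, 2.46, came with Y-linked RNA as a covariate, and leaving out 1 library gave 2.71 to 3.02. The values ranged from -0.47 to -0.35 for Sgk3, 0.29 to 0.63 for Nedd4l, -0.09 to 0.13 for Foxo1, -0.32 to -0.25 for Foxo3, -2.20 to -0.79 for Klf2, 0.78 to 1.41 for S1pr1 and 0.54 to 1.26 for Tsc22d3. The smallest value of Klf2 among these alternatives, -0.79, came with the Y-linked covariate, while the comparison with WT replicate 3 alone gave -0.64. Without WT replicate 3 the Klf2 value was -2.20, without Irf1-/- replicate 3 it was -1.21, and a mean of at least 50 removed the gene.

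Over all genes, 807 were called lower without a trend and 826 to 1472 with 1 library left out, and 799 to 1372 higher with 1 library left out and 856 with the Y-linked covariate. In the 4 smaller libraries 2085 were lower and 1810 higher. Of the list genes, 16 were called lower without a trend, 38 in the 4 smaller libraries and 16 to 27 with 1 library left out, and 8 to 13 higher with 1 left out. Of 36 list genes called, 21 kept the call in all alternatives run, and no called direction was reversed. With a block for the replicate number, 2116 genes were called lower and 1893 higher, and 34 and 17 list genes. The same-numbered samples correlated with each other more than with others, as a hint from the data only, and the Sgk1 value under the block stayed at 2.82. The cause of these shifts was not tested. Klf2 in Irf1-/- replicate 3 rested on 10 reads. Where WT replicates 1 and 2 are set against the Irf1-/- samples, sex and genotype cannot be told apart.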
